A study of Mus musculus with 614 samples.

Results

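Ccl3, Ccl4, Ccl6, Ccl9 and Il12a, 5 of the 43280 gene symbols measured, are described here across 12 sorted populations of mouse blood cell progenitors and dendritic cell precursors. These genes were picked from the same measurements, because Ccl4 and Il12a stood high in lymphoid or dendritic progenitors and Ccl6 in SiglecH-Ly6C+ and blood dendritic precursors. Their levels by population are therefore a description, and no test was made of them. Messenger RNA was read from single cells of untreated C57BL/6J mice aged 7 to 10 weeks, 598 from bone marrow and 16 from blood, each captured, lysed and amplified on a microfluidic chip and made into its own library. All gates were sorted as negative for lineage markers (Lin-).

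The gates of early progenitors held 65 lymphoid-primed multipotent progenitors (LMPP, c-Kit+ CD16/32int CD34+ Sca-1+ CD127-), 51 granulocyte-monocyte progenitors (GMP, c-Kit+ CD16/32hi CD34+ Sca-1-) and 66 common monocyte progenitors (cMoP, CD11b- CD115+ Ly6Chi Flt3- c-Kit+). They also held 48 common lymphoid progenitors (CLP, c-Kit low, CD127+ CD34+ Sca-1 low, Flt3+ Thy-1-) and 58 common dendritic cell progenitors (CDP, CD11c- MHCII- Flt3+ c-Kit intermediate, CD115- IL7R-). Dendritic precursors (pre-DC) were CD11c+ MHCII- Flt3+ CD172α- B220-. Marrow pre-DC were sorted by SiglecH and Ly6C. The SiglecH-Ly6C+ gate gave 68 cells and the SiglecH+Ly6C+ gate 45. Each of the Ly6C- gates, SiglecH-Ly6C- and SiglecH+Ly6C-, gave 70. The 16 blood pre-DC were not divided. The remaining gates were 27 plasmacytoid dendritic cells (pDC, B220+ SiglecH+) and 30 pre-pro-B cells (Flt3+ B220+ CD43+ CD93+ CXCR4+ IL7R+ CD117 low, CD24 low). Sorting took cells by surface protein, so a gate can hold cells of several kinds.

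Chemokines are small secreted proteins that draw cells carrying the matching receptor. Ccl3 and Ccl4 are inflammatory CC chemokines that macrophages and lymphocytes release on activation, and Ccl3 can act through the receptor Ccr1. Ccl6 and Ccl9 belong to a rodent branch of the family, are known from myeloid cells and act through Ccr1. Il12a encodes the p35 chain of interleukin 12, a cytokine that activates T and NK cells; p35 is released as a working cytokine only when paired with the product of Il12b, or, as interleukin 35, with that of Ebi3.

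The 4 chemokine genes lie together on chromosome 11 within 91.8 kb, in the GENCODE M21 annotation of GRCm38. Ccl9 is at chr11:83572919-83578636, Ccl6 at chr11:83587882-83593087 and Ccl3 at chr11:83647844-83649355, all on the minus strand, and Ccl4 is at chr11:83662584-83664683 on the plus strand. Il12a stands apart from them at chr3:68690644-68698547 on the plus strand. Ccl6 lies inside the antisense gene E230016K23Rik, and the libraries keep no strand, so reads of the 2 genes cannot be told apart where they overlap. E230016K23Rik itself was listed at no more than a mean of 1.18 on the log2(TPM + 1) scale in any gate. Transcripts of Ccl6 and Ccl9 shared 1 stretch of 25 bases, and no other pair of the 5 genes shared any.

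Upstream sequence is shown because neighbouring genes of this cluster differed in the gates where they were high, Ccl6 in blood and SiglecH-Ly6C+ pre-DC, Ccl3 and Ccl9 in GMP. RefSeq start sites on GRCm38.p6 were given for 4 of the 5 genes, with 2 starts for Il12a. The 120 bases before each start are printed 5′ to 3′ on the gene's own strand, at chr11:83593088-83593207 (minus) for Ccl6, chr11:83578637-83578756 (minus) for Ccl9, chr11:83649379-83649498 (minus) for Ccl3, chr3:68690524-68690643 (plus) for the upstream start of Il12a and chr3:68691304-68691423 (plus) for its downstream start. Capitals mark motif matches.
Ccl6: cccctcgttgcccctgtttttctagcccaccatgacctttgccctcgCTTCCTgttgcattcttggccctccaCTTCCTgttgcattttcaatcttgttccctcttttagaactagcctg
Ccl9: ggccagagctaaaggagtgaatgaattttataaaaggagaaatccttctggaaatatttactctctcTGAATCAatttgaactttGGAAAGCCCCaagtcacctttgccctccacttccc
Ccl3: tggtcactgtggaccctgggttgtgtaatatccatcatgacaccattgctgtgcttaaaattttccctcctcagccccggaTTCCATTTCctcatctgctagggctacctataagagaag
Il12a, upstream start: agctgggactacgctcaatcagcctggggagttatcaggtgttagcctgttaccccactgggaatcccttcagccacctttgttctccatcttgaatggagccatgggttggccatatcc
Il12a, downstream start: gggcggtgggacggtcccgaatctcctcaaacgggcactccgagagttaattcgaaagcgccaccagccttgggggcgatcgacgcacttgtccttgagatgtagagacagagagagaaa
Motifs were searched on both strands of the 250 bases before each start, and their share among 32851 windows of that length is the background. The PU.1 core AGGAAG, present in 29.5% of windows, matched Ccl6 at 73 and at 47 bases before the start, both on the opposite strand. The AP-1 motif TGANTCA, which reads the same on both strands and is in 6.75% of windows, matched Ccl9 at 53 bases before the start. The NF-kB motif, in 7.25% of windows, also matched Ccl9, at 35 bases before the start. The interferon response motif GAAANNGAA, in 7.13% of windows, matched Ccl3 at 39 bases before the start. No motif matched Il12a, and no matches overlapped.

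Levels are in TPM, a share of a cell's transcripts scaled by gene length, so levels of different genes can be set side by side. How many reads lie behind a deposited TPM value is unknown; the median number of genes at 1 TPM or more ran from 3280 in CLP to 6671 in cMoP. A gate's level is the mean over cells of log2(TPM + 1), and the SD after it is over cells. Animals and pools are not named in the labels, so a gate stands as a single sample. An exact 0 can be a missed transcript, since Gapdh, which all cells use, was listed at 0 in 9 cells. Every gate held at least 1 cell listed at 0 for each of the 5 genes.

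Some gates carried markers of their names. Mpo averaged 13.28 in GMP, Dntt 9.53 in CLP, Siglech 10.41 in pDC and Id2 10.46 in SiglecH-Ly6C- pre-DC. Mpo was also at 13.04 in cMoP, and Dntt at 7.33 in CDP. Genes listed for pre-DC were mixed. In SiglecH-Ly6C- cells Batf3 averaged 5.08, Flt3 3.83, Zbtb46 1.77 and Itgax 1.24. In SiglecH-Ly6C+ cells Id2 averaged 4.03, Flt3 2.99, Itgax 2.04, Zbtb46 1.67 and Batf3 0.76. Blood pre-DC had Id2 at 2.81, Flt3 at 2.26, Itgax at 1.52, Zbtb46 at 1.29 and Batf3 at 0.84. Pre-pro-B cells went against their label, with Ebf1 at 0.39, Cd79a at 0.74 and Igll1 at 0, while the pDC gene Siglech averaged 10.64 there. CDP, sorted as IL7R-, had Il7r at 3.78, and Kit at only 1.63. Library numbers in the labels form 9 runs, and no label says whether a run was prepared or captured together. Low values need care in the run that CLP, pre-pro-B cells and GMP share. In that run Mpo, a granule gene, was listed at 6.55 TPM or more in every pre-pro-B cell and at 5.32 TPM or more in every CLP cell, and Ly6d, a lymphoid gene, at 3.49 TPM or more in every GMP cell, although Ly6d was listed at 0 in all 65 LMPP. Shares of cells at 100 TPM or more are therefore given beside those at 1 TPM or more.

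Ccl4 was the highest of the 5 genes in any gate, and its peak was in CLP. The 48 CLP cells had a lowest value of 0, a median of 683 and a highest value of 21451 TPM, and 36 of them held 100 TPM or more (75%, exact Clopper-Pearson 95% interval 60.4 to 86.4, which like all such intervals here covers counting error only). At 1000 TPM or more there were 20 CLP cells. Cells of every gate overlapped those of CLP, since 3 CLP cells were listed at 0.

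Next below CLP stood pDC, with a median of 70.6 and a highest value of 4978.3 TPM, and CDP, with a median of 32.8 and a highest value of 7998 TPM. The shares of cells at 100 TPM or more were 48.1% of pDC (28.7 to 68.1), 43.1% of CDP (30.2 to 56.8) and 44.6% of LMPP (32.3 to 57.5). On the log2 scale Ccl4 averaged 8.71 ± 4.03 in CLP, 5.96 ± 4.63 in pDC, 5.81 ± 4.28 in CDP and 4.92 ± 4.56 in LMPP. Between 1 and 100 TPM lay 26 of 58 CDP cells, 13 of 65 LMPP cells and 7 of 27 pDC.

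The middle of the order was taken by pre-pro-B cells at 4.39 ± 4.14, SiglecH+Ly6C- pre-DC at 4.24 ± 4.46 and SiglecH-Ly6C+ pre-DC at 3.79 ± 3.69. Lowest were GMP at 2.77 ± 2.80, SiglecH+Ly6C+ pre-DC at 2.71 ± 3.93, blood pre-DC at 1.59 ± 1.82, SiglecH-Ly6C- pre-DC at 1.23 ± 2.82 and cMoP at 0.76 ± 2.25. No neighbours in this order differed by more than the smaller of their SDs. GMP show how much the threshold matters: 62.7% of them had Ccl4 at 1 TPM or more (48.1 to 75.9) but 9.80% at 100 TPM or more (3.26 to 21.4). No blood pre-DC reached 100 TPM, where 0 of 16 cells allow a share of up to 18.8% by a limit of 3 counts of the total, and of up to 20.6% by the exact interval.

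**Figure D1:**
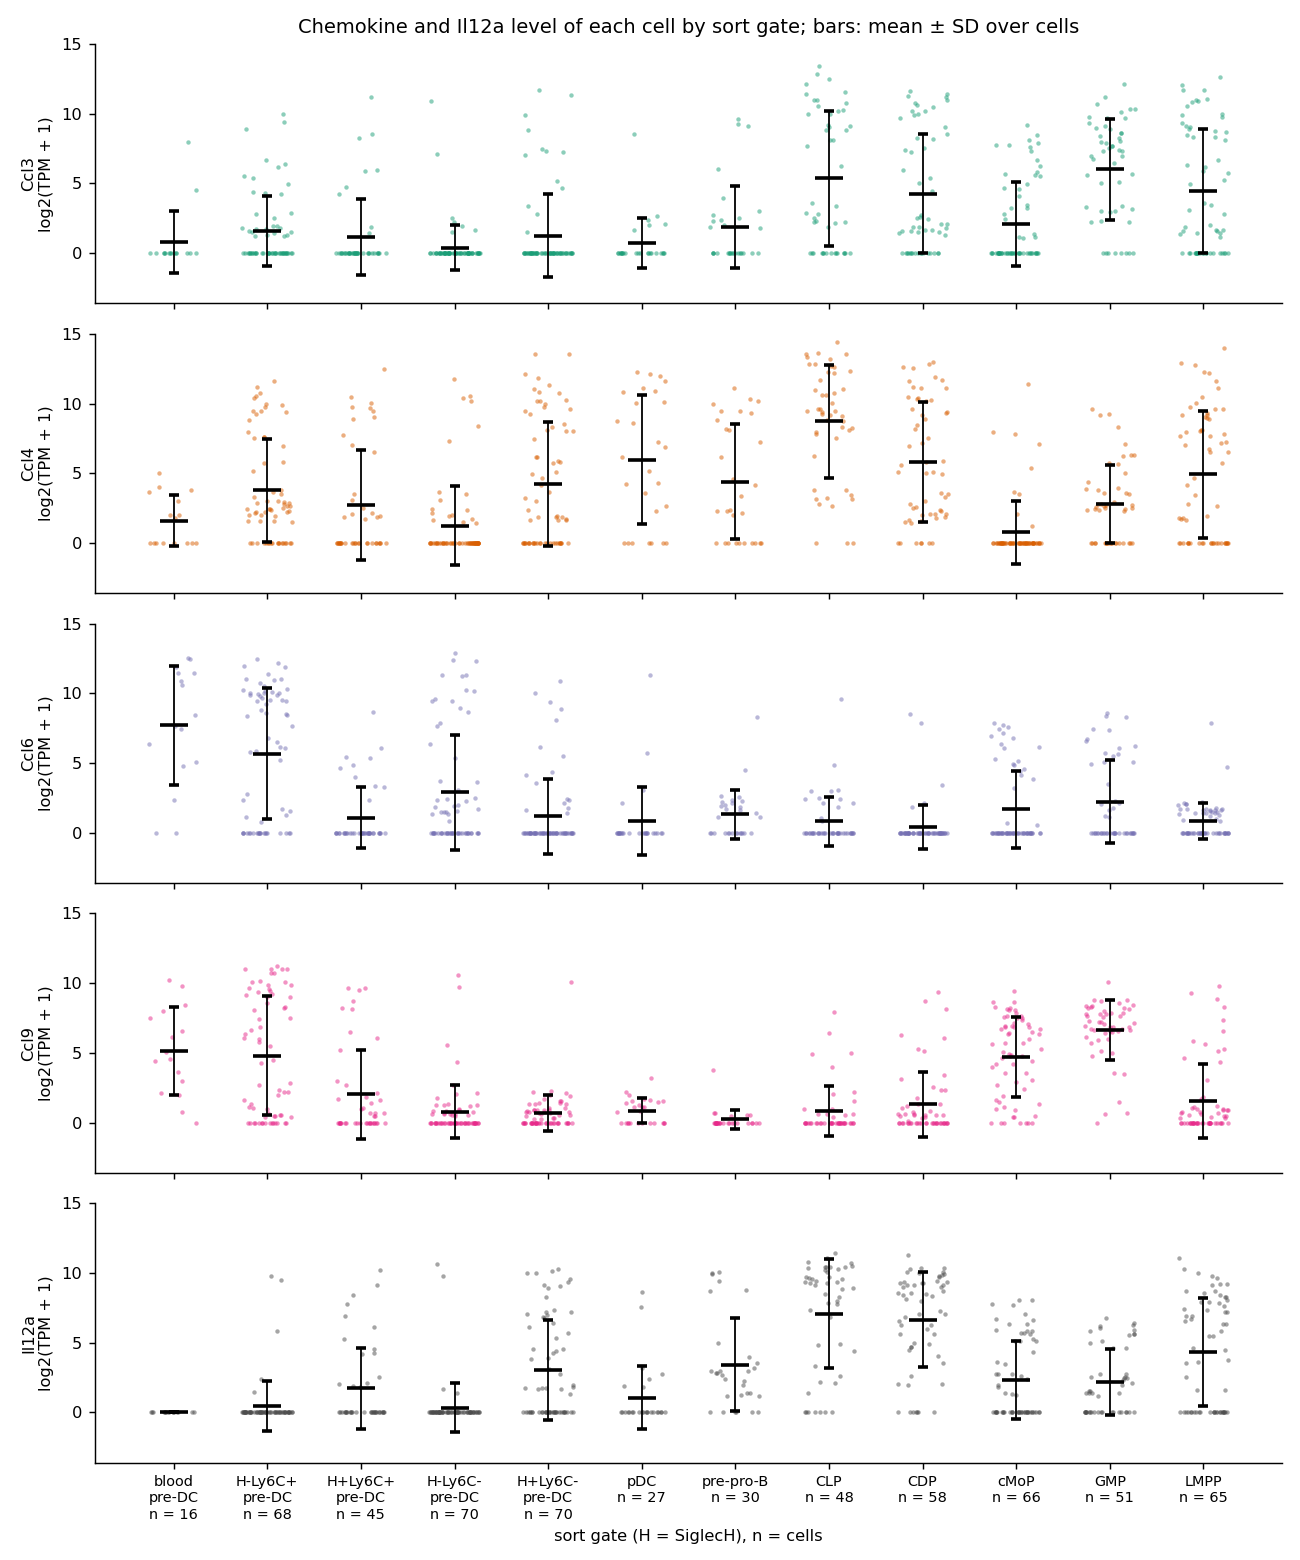
Each point is a cell, plotted by sort gate (horizontal axis, H for SiglecH) against log2(TPM + 1) of the gene named at the left, and the black bars are the mean and SD over cells. Ccl4 sits highest in CLP, Il12a in CLP and CDP, Ccl3 in GMP and CLP, Ccl6 in blood and SiglecH-Ly6C+ pre-DC, and Ccl9 in GMP, with cells at 0 in every panel and gate.

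Ccl3, which lies beside Ccl4, had another order of gates. It was highest in GMP, where the median was 160 and the highest value 4374.5 TPM, and 29 of 51 cells held 100 TPM or more (56.9%, 42.2 to 70.7). CLP had the highest single cell, 10946 TPM, but a median of only 10.2 TPM, with 22 of 48 cells at 100 TPM or more (45.8%, 31.4 to 60.8). CLP cells were thus spread wider than GMP cells, with 15 of 48 listed at 0 and 14 at 1000 TPM or more.

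The mean level of Ccl3 was 6.02 ± 3.62 in GMP, 5.39 ± 4.84 in CLP, 4.45 ± 4.42 in LMPP and 4.27 ± 4.29 in CDP. All 8 other gates were lower. Ccl3 averaged 2.09 ± 2.98 in cMoP, 1.89 ± 2.94 in pre-pro-B cells and 1.57 ± 2.51 in SiglecH-Ly6C+ pre-DC. It averaged 1.26 ± 2.97 in SiglecH+Ly6C- cells, 1.16 ± 2.71 in SiglecH+Ly6C+ cells, 0.78 ± 2.23 in blood pre-DC, 0.72 ± 1.79 in pDC and 0.40 ± 1.61 in SiglecH-Ly6C- pre-DC. In all 8 of these gates the median was 0, and in pDC 1 cell at 374.34 TPM held 95.4% of all Ccl3 of the gate. Neighbouring gates again differed by less than the smaller of their SDs.

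Il12a was highest in CLP and close behind in CDP. In CLP the median was 527 and the highest value 2750.6 TPM, with 33 of 48 cells at 100 TPM or more (68.8%, 53.7 to 81.3). In CDP the median was 262 and the highest value 2438 TPM, with 34 of 58 cells at 100 TPM or more (58.6%, 44.9 to 71.4). LMPP followed with a median of 23.3 TPM and 40% of cells at 100 TPM or more (28 to 52.9). Il12a was spread over more cells than Ccl4: 9 CLP cells and 10 CDP cells held 50% of the gate's total, where 6 CLP cells and 5 CDP cells did for Ccl4.

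Mean levels of Il12a were 7.06 ± 3.90 in CLP, 6.63 ± 3.41 in CDP, 4.31 ± 3.89 in LMPP, 3.42 ± 3.34 in pre-pro-B cells and 3.04 ± 3.59 in SiglecH+Ly6C- pre-DC. Lower still were cMoP at 2.31 ± 2.81, GMP at 2.18 ± 2.38, SiglecH+Ly6C+ pre-DC at 1.71 ± 2.93 and pDC at 1.04 ± 2.25. SiglecH-Ly6C+ pre-DC averaged 0.42 ± 1.79 and SiglecH-Ly6C- pre-DC 0.34 ± 1.73, and Il12a was listed at 0 in all 16 blood pre-DC. Apart from that last step, no neighbours differed by more than the smaller of their SDs. That step of 0.34 passed only because 16 cells all at 0 have an SD of 0. The exact interval for 0 of 16 blood cells at 1 TPM or more reaches 20.6%. Pre-pro-B cells had Il12a at 1 TPM or more in 80% of cells (61.4 to 92.3) but at 100 TPM or more in 20% (7.71 to 38.6), and GMP in 58.8% (44.2 to 72.4) and 1.96% (0.0496 to 10.4). Both gates share the run of CLP, and the part of such low values in these shares was not tested.

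Ccl6 was high in a different set of gates. Blood pre-DC had a median of 278 and a highest value of 5962.3 TPM, with 10 of 16 cells at 100 TPM or more (62.5%, 35.4 to 84.8). SiglecH-Ly6C+ pre-DC had a median of 98.8 and a highest value of 5493.2 TPM, with 34 of 68 cells at 100 TPM or more (50%, 37.6 to 62.4). SiglecH-Ly6C- pre-DC came next, with a median of 0.38 TPM, although 15 of 70 cells reached 100 TPM (21.4%, 12.5 to 32.9) and the highest single value of the gene, 7532.5 TPM, was there. In the other 9 gates the shares at 100 TPM or more lay between 1.54% in LMPP and 11.8% in GMP.

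On the log2 scale Ccl6 averaged 7.71 ± 4.28 in blood pre-DC, 5.67 ± 4.68 in SiglecH-Ly6C+ cells, 2.89 ± 4.13 in SiglecH-Ly6C- cells, 2.22 ± 2.97 in GMP and 1.69 ± 2.75 in cMoP. It averaged 1.32 ± 1.77 in pre-pro-B cells, 1.18 ± 2.67 in SiglecH+Ly6C- cells, 1.07 ± 2.18 in SiglecH+Ly6C+ cells and 0.84 ± 1.30 in LMPP. In pDC it averaged 0.82 ± 2.45, in CLP 0.81 ± 1.75 and in CDP 0.41 ± 1.59. Neighbours differed by less than the smaller of their SDs throughout.

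Ccl9, the nearest chemokine gene to Ccl6, was shared between those pre-DC gates and the myeloid progenitors. GMP led with a median of 133 and a highest value of 1059.6 TPM, and 48 of 51 cells held 1 TPM or more (94.1%, 83.8 to 98.8) and 32 held 100 TPM or more (62.7%, 48.1 to 75.9). No other gate and gene had so even a distribution among the gates with a mean over 2: the SD over GMP cells was 2.16, and 11 cells held 50% of the gate's Ccl9. Medians were 35.1 TPM in cMoP, 27.1 TPM in blood pre-DC and 20 TPM in SiglecH-Ly6C+ pre-DC, whose highest cell, 2438.1 TPM, was above any GMP cell.

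Ccl9 averaged 6.62 ± 2.16 in GMP, 5.13 ± 3.14 in blood pre-DC, 4.78 ± 4.26 in SiglecH-Ly6C+ pre-DC and 4.71 ± 2.88 in cMoP. A wide gap followed, to 2.02 ± 3.17 in SiglecH+Ly6C+ pre-DC, 1.56 ± 2.67 in LMPP and 1.31 ± 2.34 in CDP. The lowest were pDC at 0.84 ± 0.89, CLP at 0.81 ± 1.80, SiglecH-Ly6C- cells at 0.77 ± 1.89, SiglecH+Ly6C- pre-DC at 0.68 ± 1.32 and pre-pro-B cells at 0.22 ± 0.70. Even across the gap, from cMoP to SiglecH+Ly6C+ pre-DC, the means differed by less than the smaller SD.

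**Figure D2:**
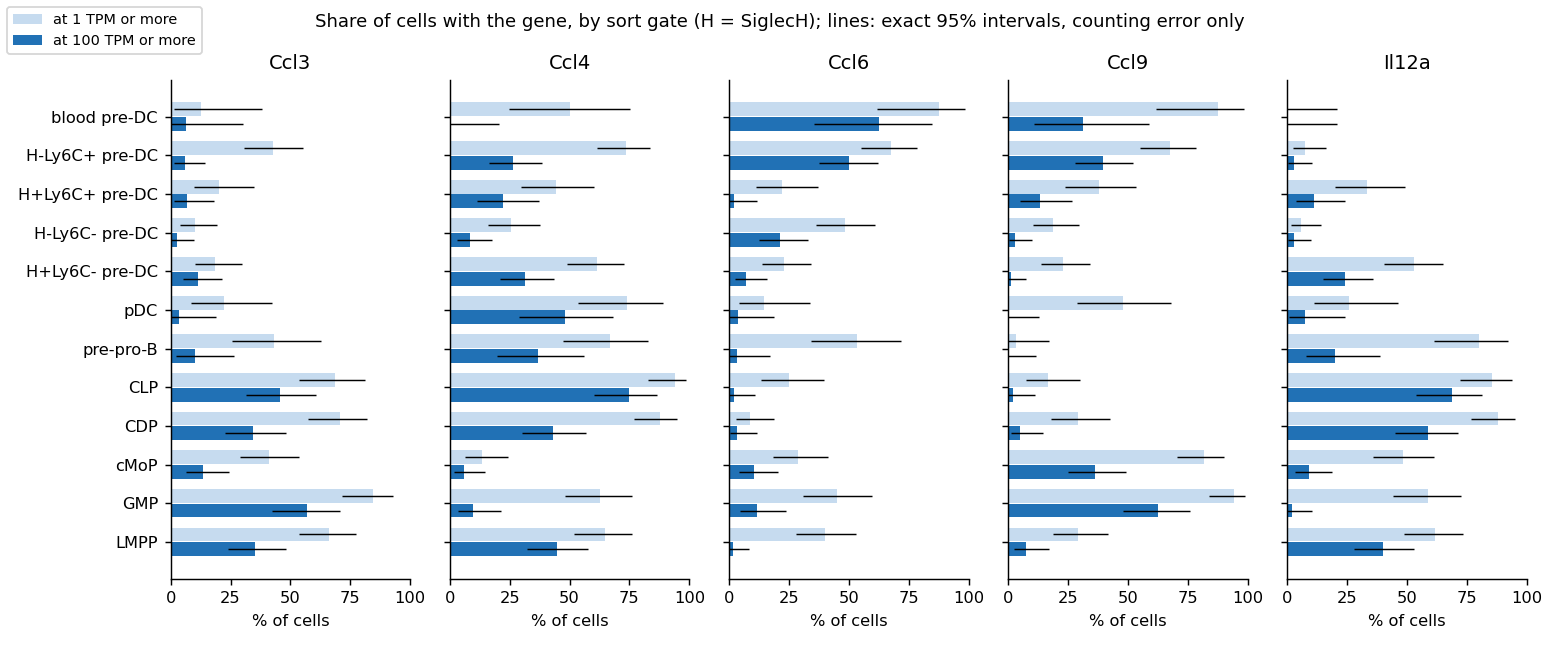
Percent of cells of each sort gate (H for SiglecH) with each gene at 1 TPM or more (light bars) and at 100 TPM or more (dark bars), with exact 95% intervals that cover counting error only. The light and dark bars are far apart for Il12a in pre-pro-B cells (80% and 20%) and GMP (58.8% and 1.96%), and closer for Il12a in CLP (85.4% and 68.8%).

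Differences between gates were set against all genes that at least 5% of the compared cells held at 1 TPM or more, with a difference of 2 or more on the log2(TPM + 1) scale called past the fold. No replicate check of any of them exists. In CLP set against GMP, 20.1% of 11523 genes were past the fold, 76 of them higher and 2239 lower in CLP, and so were 3 of the 5 genes: Ccl4 was 5.93 higher and Il12a 4.88 higher in CLP, and Ccl9 was lower by 5.81. Ccl3 differed by -0.63 and Ccl6 by -1.41, around the median of all genes of -0.81. The library numbers of both gates fall in 1 run.

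In pDC set against CDP, 5.64% of genes were past the fold, 149 higher and 662 lower in pDC, with Il12a at -5.59 and Ccl3 at -3.55 among them. Ccl4, in contrast, was at nearly the same level in pDC and CDP, with a difference of 0.15 that lay between -0.32 and 0.71 over the settings tried. Within the run that holds 24 of the 27 pDC and all CDP, the differences were -5.46 for Il12a, -3.82 for Ccl3 and -0.32 for Ccl4. Median-of-ratios size factors shifted this contrast's median gene by 0.14, more than in any of the other contrasts run.

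In SiglecH-Ly6C+ set against SiglecH+Ly6C+ pre-DC, 0.792% of genes were past the fold, 71 higher and 36 lower in SiglecH-Ly6C+ cells, and Ccl6 at 4.61 and Ccl9 at 2.76 were among them. Ccl3 differed by 0.41, Ccl4 by 1.08 and Il12a by -1.29. With a pseudocount of 10 the Ccl9 difference was 1.80 and no longer past the fold. The library numbers of the 2 gates form separate runs, so run and gate cannot be told apart. Blood pre-DC set against the averaged 4 marrow gates of pre-DC gave 4.44% of genes past the fold, 99 higher and 510 lower in blood, with Ccl6 at 5.01 and Ccl9 at 3.07. Ccl9 was under the fold there with a pseudocount of 10 (1.54) and with the log2 of the mean TPM (1.56). Blood cells also have a run of library numbers of their own.

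In SiglecH-Ly6C- set against SiglecH+Ly6C- pre-DC, 2.27% of genes were past the fold, 87 higher and 234 lower in SiglecH-Ly6C- cells, with Ccl4 at -3.01 and Il12a at -2.70. With a pseudocount of 10 both were under the fold, Ccl4 at -1.88 and Il12a at -1.40, and with the log2 of the mean TPM Il12a was at -1.82. Within the run that holds all SiglecH-Ly6C- cells and 19 of the SiglecH+Ly6C- cells, Ccl4 differed by -4.02 and Il12a by -1.60, which is under the fold. SiglecH+Ly6C- cells of the 2 runs had Ccl4 at 3.87 ± 4.41 (51 cells) and 5.25 ± 4.54 (19 cells), and Il12a at 3.45 ± 3.69 and 1.94 ± 3.14. Ccl6 was 1.71 higher in SiglecH-Ly6C- cells, and Ccl3 (-0.86) and Ccl9 (0.09) differed less.

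Pre-pro-B cells set against CLP, of the same run of library numbers, gave 3.61% of genes past the fold, and Ccl4 (-4.32), Il12a (-3.64) and Ccl3 (-3.50) were all lower in pre-pro-B cells. Against LMPP, whose library numbers form another run, CLP had 9.63% of genes past the fold, with Ccl4 at 3.79 and Il12a at 2.75. CDP against LMPP had 4.71%, with Il12a at 2.32 as the only one of the 5 past the fold. In cMoP set against GMP 11% of genes were past the fold, and Ccl3 (-3.93) and Ccl4 (-2.01) were lower in cMoP, while Ccl9 was at -1.90. These contrasts share gates with each other and are not independent. With the log2 of the mean TPM, Ccl4 and Il12a in CLP against LMPP stood at 1.77 and 1.70, Il12a in CDP against LMPP at 1.05 and Ccl4 in cMoP against GMP at -0.14, all under the fold. With a pseudocount of 10, Il12a stood at 1.99 in CLP and at 1.48 in CDP against LMPP, and Ccl4 at -0.78 in cMoP against GMP, where size factors gave -1.85.

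**Figure D3:**
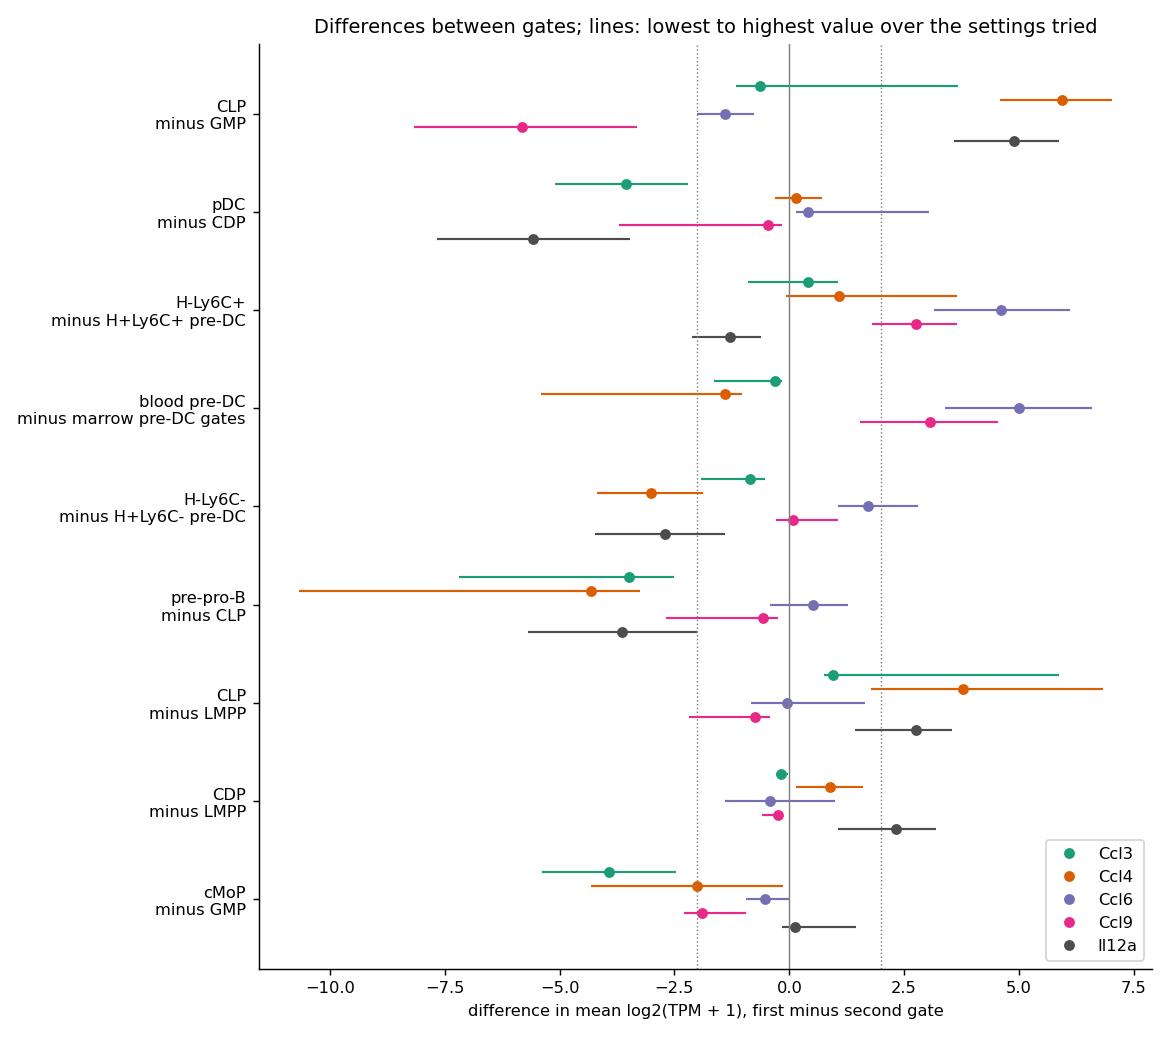
Difference in mean log2(TPM + 1) between gates, the first named minus the second (H for SiglecH), for each gene (dots), with lines from the lowest to the highest value over the settings tried and dotted lines at the fold of 2. Ccl4 and Il12a lie to the right for CLP minus GMP (5.93 and 4.88) and Ccl6 and Ccl9 to the right for both pre-DC contrasts in which they led, and the longest lines are those of contrasts with CLP, where 1 setting kept 3 CLP cells.

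Within gates, genes that shared a gate did not always share cells. Of the 48 CLP cells 20 had both Ccl3 and Ccl4 at 100 TPM or more, where the product of the single shares gives 16.5, and over all CLP cells their log2 levels correlated at a Pearson r of 0.58 (Spearman rho 0.59). In CDP both were at that level in 14 cells (product 8.62, r = 0.42), in LMPP in 14 (product 10.3, r = 0.22) and in GMP in 4 (product 2.84, r = 0.40). Among the cells with either gene at 100 TPM or more, Ccl4 was the higher of the pair in 33 of 38 CLP cells and 23 of 31 CDP cells, and Ccl3 in 28 of 30 GMP cells. These correlations are over cells of 1 gate, which differ in depth, and are descriptions.

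Ccl4 and Il12a, both at their peak in CLP, were together at 100 TPM or more in 25 CLP cells, where the product gives 24.8, with r = 0.08. In CDP they were together in 14 cells (product 14.7, r = 0.08). Ccl6 and Ccl9 were together in 15 of 68 SiglecH-Ly6C+ pre-DC (product 13.5, r = 0.17) and in 5 of 16 blood pre-DC (product 3.12, r = 0.36). Ccl6 was the higher of that pair in all 10 blood cells with either at 100 TPM or more and in 31 of 46 SiglecH-Ly6C+ cells, and Ccl9 in 31 of 33 GMP cells. At least 1 of the 5 genes reached 100 TPM in 91.7% of CLP cells, 86.3% of GMP, 82.8% of CDP and 77.9% of SiglecH-Ly6C+ pre-DC, against 30% of SiglecH-Ly6C- pre-DC. In the highest CLP cell the 5 genes made up 2.97% of all TPM.

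**Figure D4:**
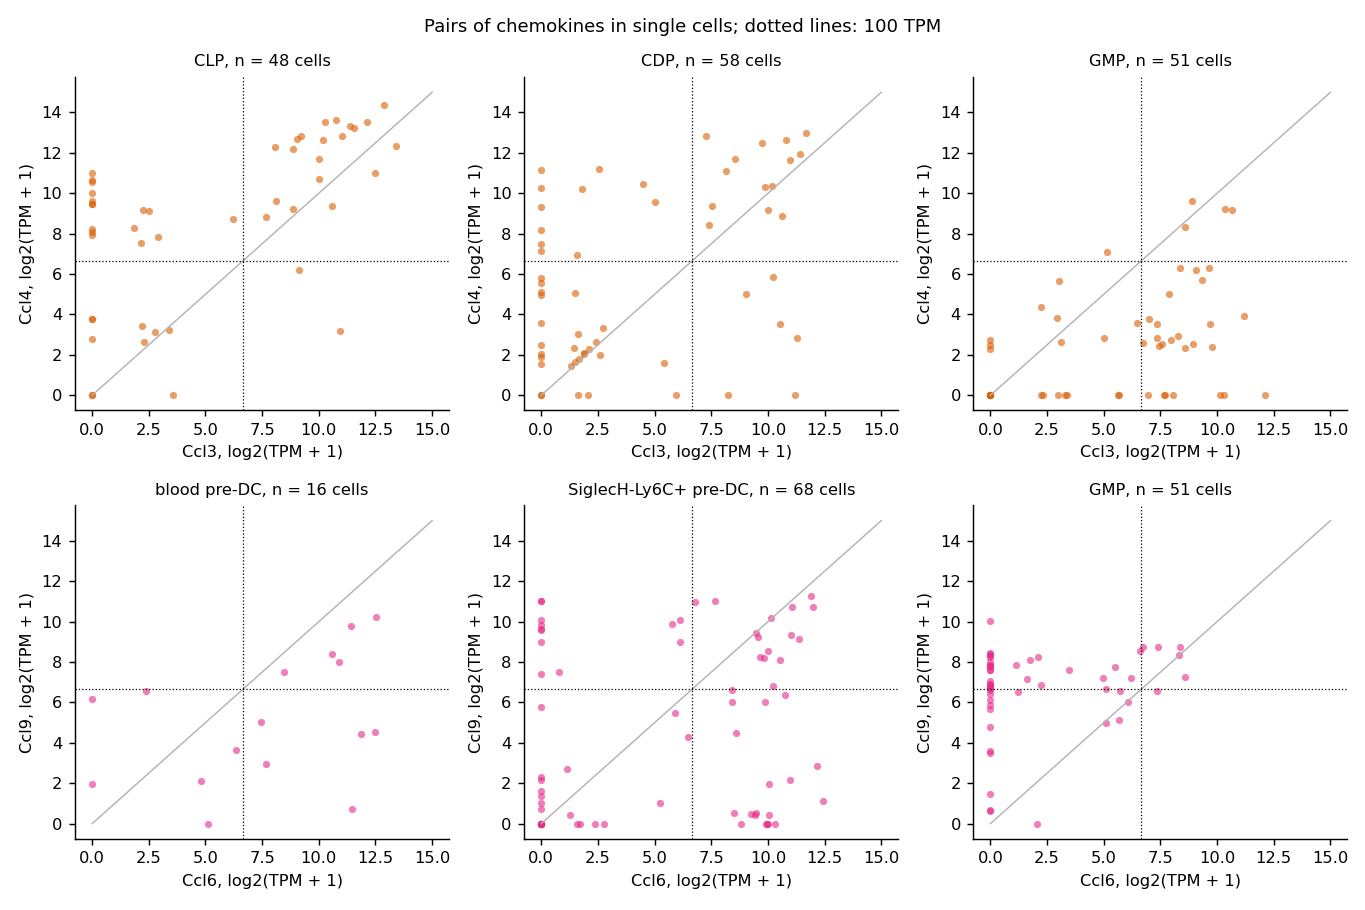
Each point is a cell, with log2(TPM + 1) of Ccl3 against Ccl4 (top row) and of Ccl6 against Ccl9 (bottom row) in the gate named above the panel, a grey line where both are equal and dotted lines at 100 TPM. Points in CLP lie mostly above the line (Ccl4 higher in 33 of 38 cells), GMP points below it in the top row (Ccl3 higher in 28 of 30 cells) and above it in the bottom row (Ccl9 higher in 31 of 33 cells).

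Other genes of these families were mostly low. Of 37 chemokine genes listed, Ccl4, Ccl6, Ccl9 and Ccl3 had the 4 highest gate means. This follows in part from the choice, since Ccl4 and Ccl6 were picked for high levels in these measurements. None of the 33 others reached a mean of 3 in any gate. The nearest was Cxcl2, which draws neutrophils, at 2.12 in blood pre-DC, then Ccl27a at 1.91 in pre-pro-B cells, and 6 were at 0 in all cells. Ccl5, the next CC chemokine gene on the chromosome below Ccl9, did not exceed a mean of 0.51. Wfdc17, a small secreted protein gene within 50 kb of Ccl4, averaged 7.24 in blood pre-DC and 5.83 in LMPP, and Ccl6 and Wfdc17 were both at 100 TPM or more in 17 SiglecH-Ly6C+ cells, where the product gives 18.

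Of the receptor genes described here, Ccr1 did not exceed 1.07, in SiglecH-Ly6C+ pre-DC, and Il12rb1, a chain of the interleukin 12 receptor, did not exceed 0.20. Of the 11 genes listed with the interleukin 12 family, Il12b, which encodes the partner chain of interleukin 12, was at 1 TPM or more in 0 CLP, GMP or LMPP cells and did not exceed a mean of 0.22 in any gate. Ebi3 averaged 3.89 in LMPP, 3.85 in cMoP, 3.37 in GMP, 2.28 in CDP and 1.57 in CLP. Cells with both Il12a and Ebi3 at 100 TPM or more numbered 9 of 58 CDP (product 7.03), 7 of 65 LMPP (product 9.20) and 4 of 48 CLP (product 5.50). The signalling genes Stat3 and Jak2 reached 4.38 in blood pre-DC and 3.94 in SiglecH+Ly6C+ pre-DC.

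**Figure D5:**
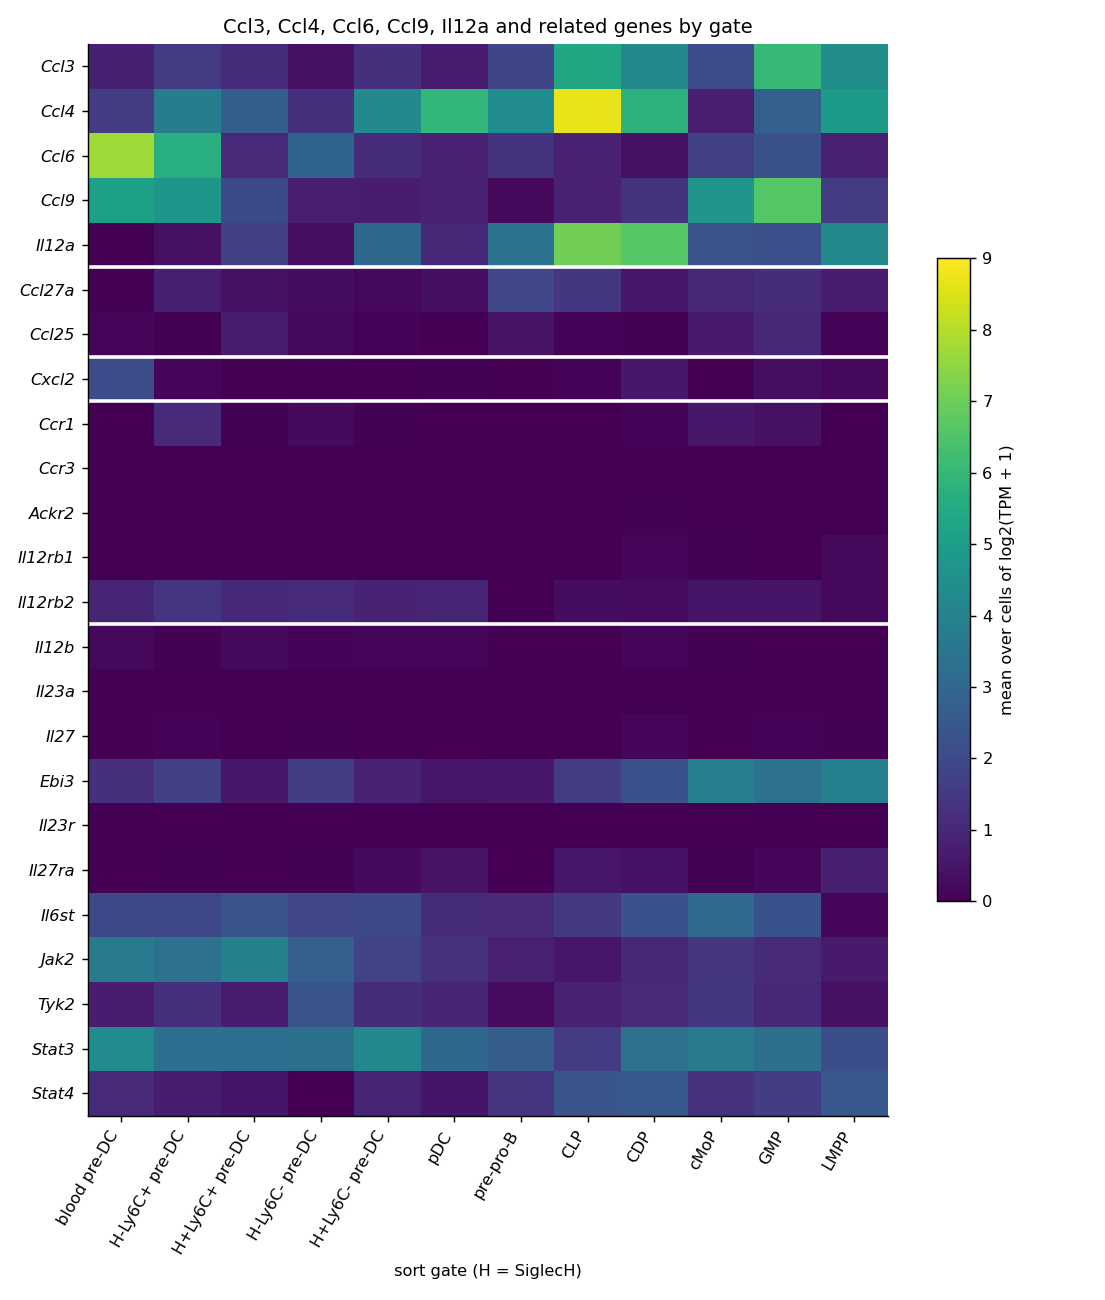
Mean over cells of log2(TPM + 1) (colour) by sort gate (columns, H for SiglecH) for the 5 genes, the 3 other chemokines with a mean of 1 or more in any gate, 5 receptors and 11 interleukin 12 family genes, in blocks from top to bottom. The 5 genes of the top block carry the brightest fields, and Il12b, Il23a and the interleukin 12 receptor chain Il12rb1 are dark throughout.

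The mean over 15 immediate-early genes, which are switched on within minutes of stimulation, was 5.11 in CLP, 4.48 in CDP, 3.96 in blood pre-DC and 3.63 in LMPP, and lower in the other gates. Single genes differed in order: Ier3 was highest in LMPP at 4.71, and Klf6 and Atf3 were highest in blood pre-DC at 7.60 and 4.57. Fos averaged 9.87 in CLP and 9.54 in CDP, and Egr1 6.63 in CLP and 7.97 in CDP, while Egr1 was at 1.13 in GMP. In CLP set against GMP 14 of 15 such genes were higher in CLP, 8 of them past the fold, with a median difference of 2.11. In pDC set against CDP 14 of 15 were lower in pDC, 6 past the fold (median difference -1.60). In pre-pro-B cells all 15 were lower than in CLP, 10 past the fold (median difference -3.27). In blood set against marrow pre-DC 12 of 15 were higher in blood, 6 past the fold, with a median difference of 1.42. All genes tested had a median of -0.81 in CLP against GMP, with 20.1% past the fold. Their median was -0.25 in pDC against CDP (5.64%), 0.02 in pre-pro-B cells against CLP (3.61%) and -0.26 in blood against marrow (4.44%). Over single cells the mean of the 15 immediate-early genes correlated best with Ccl9 in blood pre-DC, at r = 0.79 (rho 0.75, 16 cells). Next came Ccl3 in GMP at r = 0.75 (rho 0.70, 51 cells). In the same cells the number of genes per cell correlated with Ccl9 at r = 0.54 (rho 0.47) and with Ccl3 at r = 0.43 (rho 0.31). In CLP the r with the immediate-early mean was 0.26 for Ccl3, 0.35 for Ccl4 and 0.28 for Il12a. In CDP it was 0.28, 0.20 and -0.03. The part of immediate-early genes in the gate differences was not tested. Of 13 genes of the NF-kB system, which can switch on Ccl3, Ccl4 and Il12a in activated cells, 3 were higher and 10 lower in CLP than in GMP. Nfkbia was at 6.90 in CLP and 6.83 in GMP. The median difference of the 13 genes was -0.19, against -0.81 over all genes tested. Only 1 of the 13, Rela at -2.92, was past the fold. Against LMPP, 11 were higher and 2 lower in CLP, 1 past the fold (all genes 9.63%), with a median of 0.28 (all genes 0.07). In CDP against LMPP 12 were higher and 1 lower, 2 past the fold (4.71%), median 0.76 (0.39). In pDC against CDP 5 were higher and 8 lower, 1 past the fold (5.64%), median -0.38 (-0.25). In pre-pro-B cells against CLP 5 were higher and 7 lower, 0 past the fold. The part of NF-kB genes in the gate differences was not tested.

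Monocyte genes were compared beside Ccl6 and Ccl9. In SiglecH-Ly6C+ set against SiglecH+Ly6C+ pre-DC all 6 monocyte genes were higher, 5 past the fold, with a median difference of 3.82 and Lyz2, lysozyme, at 6.21. All genes tested in that contrast had a median of -0.06, with 0.792% past the fold. The summed level of the monocyte genes ran from 242 to 12360 TPM over SiglecH-Ly6C+ cells, with a median of 3250 TPM. In SiglecH+Ly6C+ cells the median was 786 TPM. In blood pre-DC the median was 2660 TPM, in cMoP 2130 TPM, in SiglecH-Ly6C- pre-DC 1470 TPM and in GMP 1310 TPM. SiglecH-Ly6C- pre-DC did not share the Ccl9 level of the others. Set against SiglecH+Ly6C- pre-DC, 5 of 6 monocyte genes were higher there, 3 past the fold, with a median difference of 2.65. Ccl9 differed by 0.09, and all genes tested had a median of -0.16, with 2.27% past the fold. In single cells Ccl6 and Lyz2 correlated at r = 0.83 in blood pre-DC (rho 0.77, 16 cells), 0.40 in SiglecH-Ly6C+ and 0.33 in SiglecH-Ly6C- pre-DC. F13a1, a monocyte gene at 9.22 in cMoP, correlated with Ccl9 at 0.18 there. The part of monocyte-like cells in these levels was not tested.

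Macrophage genes were summed in each cell, because macrophages are known to release these chemokines. In CLP the sum of 6 macrophage genes had a median of 6.00 and a highest value of 16.99 TPM, in pre-pro-B cells 8.69 and 24.06 TPM, in GMP 9.25 and 24.79 TPM and in SiglecH-Ly6C+ pre-DC 2.49 and 69.54 TPM. In the other 8 gates the median was 0, and the highest sum, 427.8 TPM, was that of 1 LMPP cell, which held it as Cd5l. Of CLP cells 56.2% had C1qb at 1 TPM or more, and it was at 100 TPM or more in 0 cells of any gate. CLP, pre-pro-B cells and GMP are the gates of the run in which low values need care, while SiglecH-Ly6C+ pre-DC are of another run. Cd5l did not exceed 4.05 TPM in CLP, 5.83 TPM in pre-pro-B cells and 10.44 TPM in GMP. Neither the part of such low values in these sums nor the part of macrophage RNA in the chemokine levels was tested. In blood pre-DC, CDP and LMPP C1qb was listed at 0 in all cells. Cd3d, Gzmb and the other T and NK cell genes were low in all gates but for Nkg7, which averaged 8.41 in GMP and 5.75 in CLP. Basophil and mast cell genes reached their highest mean with Hdc, at 3.82 in GMP, and 19 of 51 GMP cells had a sum of 100 TPM or more for that list. Of the 8 listed genes only Hdc averaged 3 or more in GMP, and the median of the 8 means was 0.42. In 3 of 51 GMP cells more than 1 gene of a list for another cell type reached 100 TPM. The part of basophils or mast cells in the chemokine levels was not tested.

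The genes whose gate means most resembled each member's, by Pearson correlation over the 12 gates among 9376 genes, were chosen by a fixed rule of 3 a gene and describe likeness only. For Ccl3 they were Dnajb4, D16Ertd472e and Kctd1, each at r = 0.96. For Ccl4 they were Zbtb10 (0.89), Tsc22d1 (0.88) and Dntt (0.87), the last a DNA polymerase of lymphoid progenitors at 9.53 in CLP. Hpgd (0.98), Ifitm6 (0.96) and Abca9 (0.96) were nearest to Ccl6, and Cln8 (0.94) and Mcemp1 (0.94) were among those nearest to Ccl9. Nearest to Il12a were Gpsm1 (0.94), Cd69 (0.93), an early activation receptor at 8.65 in CLP and 8.22 in CDP, and Arl4a (0.92). The names depend on the measure. By Spearman correlation other genes were nearest to Ccl3, Ccl6 and Ccl9. Only Gpsm1 stayed for Il12a, and Zbtb10 and Tsc22d1 stayed for Ccl4. Some were low even in their highest gate, with means of 1.12 for Zbtb10, 1.48 for Gpsm1, 1.87 for Dnajb4 and 1.92 for Kctd1. Among the 5 genes themselves r was 0.73 for Ccl4 with Il12a, 0.71 for Ccl3 with Il12a, 0.60 for Ccl6 with Ccl9, 0.47 for Ccl3 with Ccl4 and -0.65 for Ccl6 with Il12a.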

How the data were processed

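Single-cell libraries were made with C1 chips, oligo(dT) priming and Nextera XT, per the labels' protocols. The authors deposited TPM per gene symbol and cell, made with RSEM 1.2.19 on GRCm38 per the submitters' processing notes; no aligner or annotation is named there. TPM totals per cell lay between 997617 and 1000000. TPM are not counts, so no count test was used, and depth is unknown. All cells were used, grouped by gate from the labels, and no doublet caller was run. Per gate the mean over cells of log2(TPM + 1) was taken with a pseudocount of 1; gates were compared by differences of 2 or more, without a test. Runs of library numbers, 9 in all, were taken as possible batches. The 5 genes and all lists were chosen with earlier results of these data known. Named besides them were the 3 genes most alike, the highest of each list and genes within 50 kb. Some genes that this rule names are not reported here. Alternatives were pseudocounts of 0.1 and 10, log2 of the mean TPM, size factors over 1031 genes, single runs, other thresholds and gene filters, and leaving out cells under 2000 genes, the 5% with the most genes or cells with markers of other types. Leaving out cells with a macrophage marker at 1 TPM, and the highest cell of each gate, was added after seeing the data. Steps were tested on simulated data drawn without the many zeros of the 5 genes. That test therefore does not cover how zeros and the pseudocount affect the differences. Values were computed with pandas 2.3.3 and numpy 2.4.6 under Python 3.11.15, intervals with scipy 1.17.1 and figures with matplotlib 3.10.9, with RefSeq and GENCODE M21 for positions.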

Additional observations from a re-analysis of the deposited data

Results flagged for a closer look

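The signs of the Ccl4 differences with SiglecH were opposite in the 2 Ly6C classes of marrow pre-DC: SiglecH-negative minus SiglecH-positive cells differed by 1.08 in Ly6C+ and by -3.01 in Ly6C- pre-DC, 4.09 apart on the log2(TPM + 1) scale. Ccl3 also had opposite signs, with 0.41 in Ly6C+ and -0.86 in Ly6C- pre-DC, 1.27 apart. Both were singled out for these signs, which depend on the scale: with the log2 of the mean TPM the Ly6C+ difference was -0.08 for Ccl4 and -0.90 for Ccl3, the same sign as in Ly6C- pre-DC. The difference between them was not tested, since each gate is 1 sample. The library numbers of the 2 Ly6C+ gates form separate runs, and run and gate cannot be told apart there.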

How the results depend on the processing

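Over the settings tried, Ccl4 and Il12a in CLP minus GMP ranged from 4.59 to 7.02 and from 3.58 to 5.86, and in pDC minus CDP from -0.32 to 0.71 and from -7.67 to -3.46. Ccl6 ranged from 3.15 to 6.12 in SiglecH-Ly6C+ minus SiglecH+Ly6C+ pre-DC and from 3.38 to 6.59 in blood minus marrow pre-DC. Of 19 differences past the fold, 11 stayed past it in every setting and 8 did not in at least 1, 7 of them with a pseudocount of 10 and 6 with the log2 of the mean TPM; 12 under the fold passed it in at least 1 setting. Of 416 alternative values for the 44 differences, 13 moved by more than the SD over cells, a wide measure that says little about stability. Of these 13, 6 came from the log2 of the mean TPM. Another 5 came from leaving out cells with a macrophage marker, which kept only 3 CLP, 3 GMP, 2 pre-pro-B and 10 SiglecH-Ly6C+ cells. Ccl3 in CLP minus GMP, under the fold at -0.63, ranged from -1.16 to 3.67. Il12a in CLP minus LMPP was 1.42 without those cells. Depth is unknown for TPM, so low values limit every share at 1 TPM. No paired analysis was possible because the replicate numbers only name cells and each gate is 1 sample.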
